A study of Mus musculus with 4 samples.

Results

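Acetylated histone H3 (H3K27ac, measured here by ChIP-seq) is found at active promoters and enhancers and often lies in dense runs of neighbouring sites. The runs described here were found from position only. The regions of the list shared by all libraries were sorted along each chromosome and chained wherever the gap to the next was at most 12.5 kb, and every chain of 4 or more regions was kept. This gave 828 chains with 4155 member regions, which is 17.4% of the 23946 regions listed.

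As background, enhancers of a gene that a cell type depends on can lie in a cluster along the chromosome, with several elements acting on the same promoter. Joining nearby elements and ranking the joined units by signal is the usual way to find super-enhancers, and in embryonic stem (ES) cells such units lie near genes of the pluripotency network. The chains here were not ranked by signal and can hold promoters as well as enhancers. No gene annotation of the build mm9 was used, so chains and regions are given by position and by the region identifiers of the deposited list, and whether a chain is an enhancer cluster was not tested.

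The libraries came from MC1-ZE7, a mouse ES cell line of strain 129S6/SvEvTac, grown without feeders in serum and leukemia inhibitory factor. Emerald, a green fluorescent protein, reports Zscan4 in this line, and sorting gave Emerald-negative cells (Zscan4-, 2 libraries) and the bright part of the Emerald-positive cells (Zscan4+, 2 libraries). The Zscan4 genes encode zinc-finger proteins, are switched on in ES cells only for short periods and are also expressed in the embryo at the 2-cell stage. All 4 libraries share the line, the medium and the antibody, and each is a population of sorted cells, so a change in all cells and a change in some of them cannot be told apart. Replicate 2 of each group was prepared in another way, with a fragment range of 200 to 500 bp in place of 200 to 300 bp. Nothing in the labels says whether replicates were separate cultures, so p-values measure only how far these samples spread, and that spread may be technical. The depth recovered from the values was 9939196 reads in Zscan4- replicate 1 and 17761572 in its replicate 2. It was 18284211 reads in Zscan4+ replicate 1 and 15920244 in its replicate 2. Reads in listed regions made up 16.7% and 17.9% of a Zscan4- library but 13.0% and 19.1% of a Zscan4+ library (replicates 1 and 2), and this gap between the Zscan4+ replicates runs through every value below that is not a share.

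A dense chain was usually short. Of the 828, 425 had 4 regions, 207 had 5, 196 had 6 or more and 22 had 10 or more, up to 16. They spanned a median of 24.8 kb (6.38 to 99.5 kb), of which the regions covered a median of 20.4%, and neighbouring members lay a median of 5065 bp apart. Just at the limit, 165 gaps lay within 500 bp below it and were joined, and 216 lay within 500 bp above it and were not. Chains of 3, which were left out, numbered 1037. Dense chains lay on all 19 autosomes and the X chromosome, with none among the 4 listed regions of the Y chromosome. Members made up 24.0% of the listed regions on chromosome 17, 24.0% on chromosome 8 and 23.2% on chromosome 11, against 8.62% on the X chromosome and 9.19% on chromosome 18.

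Pooled over widths, members carried more acetylation per kilobase than the other regions in every library, and the excess was smaller in Zscan4+ cells. The mean level over covered length was 7.26 and 7.72 RPKM (read density scaled to region length and library size) in Zscan4- replicates 1 and 2, and 5.25 and 7.84 RPKM in Zscan4+ replicates 1 and 2. Relative to the regions outside dense chains in the same library, this was 1.22 and 1.21 times as high in the Zscan4- libraries and 1.12 and 1.14 times in the Zscan4+ libraries. The ratio does not depend on the scale of a library. It averaged 1.21 ± 0.006 in Zscan4- and 1.13 ± 0.011 in Zscan4+ (SD, n = 2), and the groups did not overlap. By median level the excess depended on width. Under 300 bp members had 22.4 RPKM against 13.2 in Zscan4- replicate 1. Such regions were 17.6% of members but 9.59% of single regions. From 300 bp to 1 kb members were also higher in every library. From 1 to 2 kb they had 4.94 against 4.73 RPKM in Zscan4- replicate 1 and 3.7 against 3.75 in Zscan4+ replicate 1. At 2 kb or wider members were lower in every library, at 5.31 against 5.45 RPKM in Zscan4- replicate 1.

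The sums behind the ratio of mean levels also give the share of all acetylation signal in listed regions that fell in dense chains. It restates the ratio above and is not a separate observation. This share was 19.6% and 19.5% in the Zscan4- libraries and 18.3% and 18.5% in the Zscan4+ libraries. The mean difference was -1.15 percentage points, larger than the spread between replicates (SD 0.079 and 0.149, n = 2 each). Within replicate 1 the difference was -1.31 points, and within replicate 2 it was -0.987 points. Single regions with no neighbour within 12.5 kb moved the other way, from 41.9% in both Zscan4- libraries to 43.4% and 43.0% in Zscan4+ replicates 1 and 2. The exact two-sided permutation test over the 4 libraries gave p = 0.33 for each of these shares and ratios, the smallest value this design allows.

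Few dense chains changed as whole units when values were used as deposited. For each chain the RPKM of its members times their width was summed, which gives its reads scaled to library size in the same way as RPKM but without the length (RPM), and the sums were compared with limma on log2(sum + 0.5) over all 15567 chains of any size, single regions included. The median sum of a dense chain was 35.9 and 38.3 RPM in Zscan4- replicates 1 and 2, and 25.4 and 37.5 in Zscan4+ replicates 1 and 2. Zscan4+ replicate 1 was the low library and the other 3 lay close together. The median log2 difference (Zscan4+ minus Zscan4-) was -0.22, against -0.14 over all chains. In replicate 1 the dense chains' median was -0.46, in replicate 2 it was 0.02. A median below 0 therefore rests on replicate 1, and without Zscan4+ replicate 1 it was 0.07. The middle 80% of dense chains lay between -0.71 and 0.31, against -0.81 and 0.71 for all chains.

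Of the 828 dense chains, 7 rose and 15 fell in Zscan4+ cells at a limma adjusted p of at most 0.05. Over all chains tested, 7.55% were higher and 5.80% lower, and for dense chains the shares come to 2.66% in both directions together. Chains called in either direction made up 2.35% of chains of 4, 4.83% of chains of 5, 1.42% of chains of 6 or 7 and 0.0% of the 55 chains of 8 to 16. Sums of dense chains were also less spread out: the SD of the log2 difference was 0.84 for single regions and 0.41 for dense chains. It was 0.60, 0.49 and 0.42 for chains of 2, 3 and 4. A sum pools several members and lies further from the pseudocount of 0.5, and how much of the narrowing comes from this was not tested. At an unadjusted p under 0.05 limma gave 99 dense chains, beside 24.7% of all chains. The 2 groups of libraries did not overlap in 80 dense chains with Zscan4+ higher and in 300 with Zscan4+ lower, beside 18.5% and 34.2% of all chains.

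These counts depended on how the libraries are scaled. The median standard error of a dense chain's difference was 0.37 as deposited and 0.12 once each library was centred on its median over all chains, which moved the median difference of all chains to -0.03. After centring, 106 dense chains were higher and 249 lower, among them all 7 and all 15 above, beside 17.3% and 17.6% of all chains. With the replicate number as a block 6 were higher and 13 lower. The block kept 6 of the 7 rises and 10 of the 15 falls, and 3 other falls were called. Quantile normalization gave 163 higher and 193 lower. For the block, quantile normalization and the left-out libraries below, no share over all chains is given. Those counts therefore describe the settings and do not set dense chains apart from other chains. Without Zscan4+ replicate 1 there were 145 higher and 84 lower, and without Zscan4+ replicate 2 there were 26 and 535. Without either Zscan4- library limma called 0 dense chains, and 0 had an unadjusted p under 0.05, with a median standard error of 0.86 without replicate 1 and 0.83 without replicate 2.

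**Figure D1:**
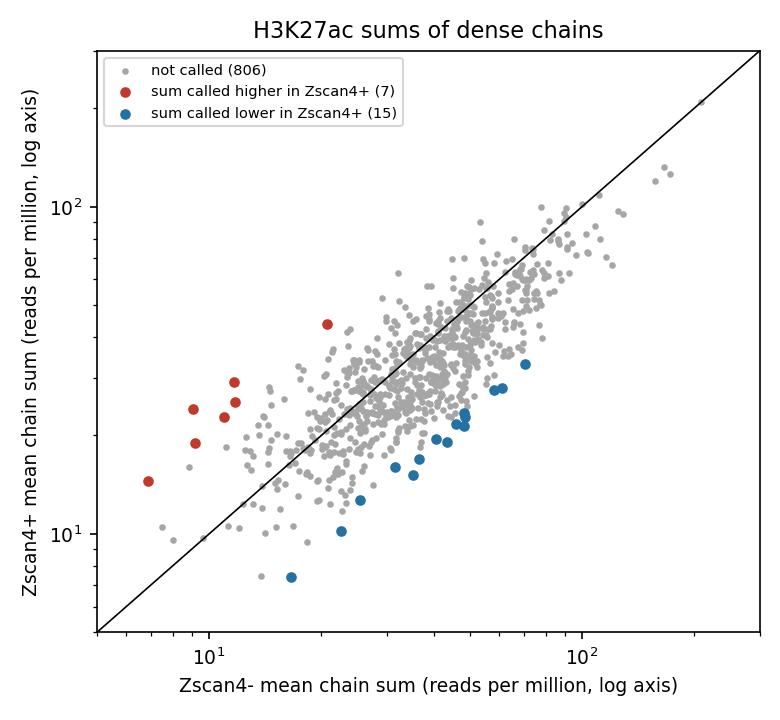
Mean summed H3K27ac of each of the 828 dense chains in Zscan4- libraries (x axis) and Zscan4+ libraries (y axis), in RPM on log axes, n = 2 libraries a group; the line marks equal sums. The 7 chains called higher have Zscan4- means of 6.85 to 20.7 RPM, and the 15 called lower have 16.6 to 70.3.

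The 7 chains that rose started low. Their median sum was 9.87 and 11.4 RPM in Zscan4- replicates 1 and 2, and 19.5 and 28.8 in Zscan4+ replicates 1 and 2. None had more than 5 members, log2 differences ran from 0.99 to 1.34, and 19 of their 31 members were themselves called higher while 0 were called lower. In 5 of the 7 every member had a difference above 0.

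The largest rise was shared by all members of its chain. The chain R09265 to R09269, on chromosome 17 from 17627784 to 17646700, had a sum of 8.85 and 9.29 RPM in Zscan4- replicates 1 and 2, and of 19.5 and 28.8 in Zscan4+ replicates 1 and 2. Both Zscan4+ libraries lay above both Zscan4- libraries. The log2 difference was 1.34 ± 0.36 (SE, limma adjusted p = 0.0026). All 5 members were called higher, at 0.95 to 1.51, the only dense chain with every member called in 1 direction. A test of whether the members differ in their log2 difference (limma's diffSplice F-test) gave an adjusted p of 0.96.

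In other rising chains the members differed. The chain R01464 to R01467, on chromosome 10 from 7511822 to 7532484, had sums of 11.9 and 11.4 RPM in the Zscan4- libraries, and of 25.1 and 33.3 in Zscan4+ replicates 1 and 2 (log2 difference 1.28, limma adjusted p = 0.0048). Its last member, R01467, was at 0 and 3 reads in Zscan4- replicates 1 and 2, and at 51 and 42 reads in Zscan4+ replicates 1 and 2. Its first member, R01464, went from 4.15 and 4.99 RPKM to 6.26 and 9.01 RPKM, a log2 difference of 0.67 that was not called (adjusted p = 0.23).

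The chain R00981 to R00985 on chromosome 1, from 145623762 to 145636256, went from 9.87 and 13.7 to 20.3 and 30.3 RPM (log2 difference 1.06, limma adjusted p = 0.028). Its first 2 members, 584 bp apart, had differences of 0.02 and 0.39, and its last 3 were called higher at 1.75, 1.97 and 1.18. The chain R17434 to R17437 on chromosome 5, from 133379966 to 133399925, had 3 members called higher at 1.91 to 2.60 and 1, R17435, at -0.27. In Zscan4- cells R17435 held most of this chain's signal, at 4.20 and 3.94 RPKM, and in Zscan4+ cells it stood at 3.02 and 3.55 RPKM.

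The remaining 3 lay on chromosome 18 from 37802973 to 37828235, on chromosome 15 from 76778619 to 76791935, and on chromosome 19 from 61207369 to 61234281. Their log2 differences were 1.05, 0.99 and 1.00. With the replicate number as a block, the one on chromosome 18 had a limma adjusted p of 0.056. With a minimum mean of 2 in place of 0.5 the other 2 had 0.057 (chromosome 15) and 0.055 (chromosome 19). The members of the chain on chromosome 15 lay close together, between 0.82 and 1.39 (diffSplice adjusted p = 0.92). On chromosome 19 the first 2 members rose. R11702 had 5 and 7 reads in Zscan4- replicates 1 and 2 and 50 and 57 in Zscan4+ replicates 1 and 2, and R11703 had 1 and 2 reads against 67 and 78. The last 3 members, the nearest 7.5 kb further on, had log2 differences of 0.66, 0.04 and -0.22.

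**Figure D2:**
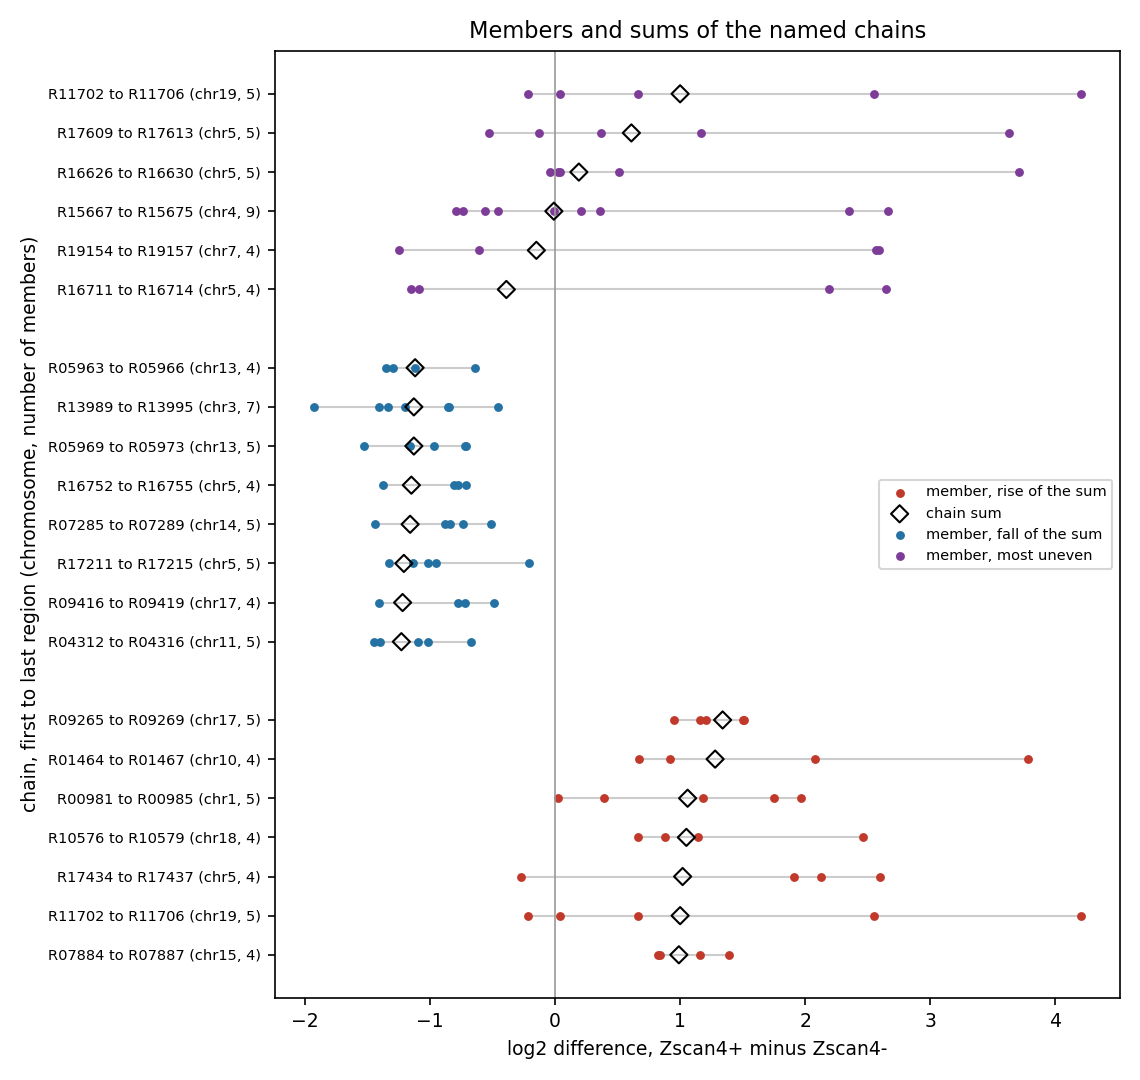
Log2 differences (Zscan4+ minus Zscan4-, x axis) of single members (points) and of the chain sum (diamonds) for the 7 chains whose sum rose, the 8 with the largest fall of the sum and the 6 with the most uneven members, each row a chain labelled by its first and last region. The chain R11702 to R11706 belongs to 2 of these sets and is drawn in both. Members of the falling chains all lie below 0, whereas the uneven chains reach from about -1 or 0 to above 2.

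The 15 chains that fell started from higher sums than the 7 that rose. The starting sums are part of the difference by which both sets were picked, so they describe the calls. In Zscan4- replicates 1 and 2 the median over all dense chains was 35.9 and 38.3 RPM, and over the 15 it was 41.1 and 46.2. In Zscan4+ replicates 1 and 2 the 15 had a median of 13.3 and 25.8 RPM. Log2 differences ran from -1.23 to -1.0. Of their 73 members, 36 were called lower and 1 higher, and in 12 of the 15 chains every member lay below 0. The diffSplice F-test called 1 of the 15 uneven, against 5 of the 7 that rose. After centring the counts were 4 of the 15 and 5 of the 7, and this difference between rising and falling chains was not tested.

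The largest fall was in the chain R04312 to R04316, on chromosome 11 from 116742108 to 116777321. Its sum was 41.1 and 46.2 RPM in Zscan4- replicates 1 and 2, and 13.3 and 24.9 in Zscan4+ replicates 1 and 2. The groups did not overlap, although Zscan4+ replicate 2 fell less. The log2 difference was -1.23 ± 0.37 (SE, limma adjusted p = 0.0088). Called lower were 4 of its 5 members, at -1.45 to -1.02, and the fifth, R04313, had -0.67.

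The chain R17211 to R17215, on chromosome 5 from 117736775 to 117766135, went from 33.3 and 37.1 to 12.4 and 17.8 RPM (log2 difference -1.21, limma adjusted p = 0.0092), with 4 of 5 members called lower. Its first member, a narrow region of 268 bp named R17211, had -0.21. The chain R13989 to R13995, on chromosome 3 from 84442229 to 84470231, had 7 members, the most in any called chain, a number shared with 1 other. It went from 68.4 and 72.2 to 24.1 and 41.9 RPM (log2 difference -1.13, limma adjusted p = 0.028, or 0.076 with a replicate block). Called lower were 4 of the 7, the first 3 and the last, and R13994 had the difference nearest to 0, at -0.46.

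In some falling chains only the member with most signal was called. In the chain R09416 to R09419, on chromosome 17 from 26674450 to 26698391, the sum went from 46.3 and 50.4 to 15.3 and 27.4 RPM, and the member R09417 alone was called, at 16.6 and 20.0 RPKM in Zscan4- and 4.42 and 9.62 RPKM in Zscan4+ libraries (log2 difference -1.41). The other 3 members had differences of -0.49 to -0.78. In the chain R07285 to R07289, on chromosome 14 from 119090382 to 119113092, only R07288 was called lower (-1.44), and the rest had -0.51 to -0.88. That chain's sum had an adjusted p of 0.020, and of 0.052 with the block.

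Chromosome 13 held a pair of falling chains 185 kb apart. R05963 to R05966 (63820180 to 63831782) went from 17.01 and 16.1 to 6.57 and 8.23 RPM, with 3 of 4 members called lower. R05969 to R05973 (64016602 to 64046509) went from 34.3 and 39.0 to 12.6 and 21.4 RPM, with 3 of 5 called lower. Both had limma adjusted p = 0.018 and diffSplice adjusted p of 0.83 or 0.84. A further fall, on chromosome 5 from 66448284 to 66473662, had a log2 difference of -1.15 with 1 of 4 members called.

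The 8 chains with most regions and the 8 with the highest sums are 11 chains in all. None of the 11 were called as deposited, 6 were called lower after median centring, and 9 were called lower without Zscan4+ replicate 2. The chain with most regions, R00611 to R00626 on chromosome 1 from 88330592 to 88407688, had 16 members over 77.1 kb. Its sum was 157 and 175 RPM in Zscan4- replicates 1 and 2, and 105 and 160 in Zscan4+ replicates 1 and 2, so Zscan4+ replicate 2 lay just above Zscan4- replicate 1 and the groups overlapped. The log2 difference was -0.36 ± 0.44 (SE, limma adjusted p = 0.69), and after centring it was -0.24 ± 0.09 (adjusted p = 0.034). In this chain 1 member, R00615, was called lower at -1.0. The widest chain, R19575 to R19589 on chromosome 7 from 52650744 to 52750252, spanned 99.5 kb and had a log2 difference of -0.51 (limma adjusted p = 0.53, or 0.0047 after centring), with 3 of 15 members called lower.

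The highest sum belonged to R23936 to R23942, on chromosome X from 166410278 to 166445123, at 237 and 180 RPM in Zscan4- and 179 and 239 in Zscan4+ libraries. The log2 difference of the sum was 0.00, while its first member, R23936, rose from 8.75 and 9.97 to 24.6 and 26.2 RPKM (log2 difference 1.40, limma adjusted p = 0.0046). The other 6 members had differences of -0.24 to 0.00. In the chain R21824 to R21833 on chromosome 8, from 114111384 to 114181850, 3 of 10 members were called higher, by up to 2.40, and the sum stood at 98.7 and 101.4 RPM in Zscan4- against 75.5 and 129 in Zscan4+ replicates 1 and 2. Among the 100 chains with the highest sums, a number chosen after the values were seen, differences ran from -0.99 to 0.73 with a median of -0.26, limma called 0, and the F-test called 14 uneven. After median centring 31 of the 100 were called lower and 9 higher.

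More was called among single members than among sums. Of the 4155 member regions, 231 were higher and 264 lower in Zscan4+ cells in a limma fit of log2(RPKM + 0.5) over all 23946 regions. That is 5.56% and 6.35% of members, beside 8.01% and 6.82% of all regions. A called member was present in 340 of the 828 chains (41.1%): 226 held 1, 82 held 2 and 32 held 3 or more. In 17 chains more than 50 percent of the members were called in the same direction, and 22 chains held members called in opposite directions. After centring 480 were higher and 725 lower, beside 14.1% and 15.1% of all regions. With a replicate block 434 members were called lower and 286 higher. No share over all regions is given for the block or for the left-out libraries that follow. The counts of higher and lower members were 92 and 9 without Zscan4- replicate 1, 89 and 2 without Zscan4- replicate 2, 428 and 205 without Zscan4+ replicate 1, and 217 and 1551 without Zscan4+ replicate 2.

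Members called higher moved further than members called lower. Members called higher had a median log2 difference of 1.62, against 2.16 for single regions called higher, and members called lower had -1.15, against -1.14. Both groups of values were selected by the same test, so they describe the calls. Called at least 4-fold higher were 68 members (1.64%), beside 3.86% of all regions and 5.67% of single regions. At least 4-fold lower was 1 member, beside 0.0668% of all regions. Below 1 RPKM in Zscan4- replicates 1 and 2 were 1.90% and 1.88% of members, against 6.65% and 6.38% of single regions, so a smaller share of members started from a level near 0.

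The 68 strongly risen members lay in 60 chains, with 1 each in 52 of them. Their median level was 0.58 and 0.66 RPKM in Zscan4- replicates 1 and 2, and 4.35 and 5.93 RPKM in Zscan4+ replicates 1 and 2. In their chains they held a median of 2.15% and 2.25% of the sum in the Zscan4- libraries and 17.2% and 16.4% in the Zscan4+ libraries. The sums of these 60 chains had a median log2 difference of 0.30 with them and of 0.04 without them, and 4 of the 60 sums were called. Of the 255 other members of these chains, 24 were called higher and 11 lower, beside 8.01% and 6.82% of all regions. Their median difference was -0.03. Regions going from below 1 RPKM in both Zscan4- libraries to above 3 RPKM in both Zscan4+ libraries numbered 53 among members (3.24% of all regions did so), in 48 chains.

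In the Zscan4- libraries, members called lower held more of their chain's signal than members called higher. The 231 members called higher held a median of 5.47% and 5.80% of the sum in those libraries. In Zscan4+ replicates 1 and 2 they held 19.2% and 18.6%, more than members called lower. The 264 members called lower lay in 185 chains and held a median of 26.1% and 25.5% of the sum in the Zscan4- libraries, and 14.9% and 17.3% in Zscan4+ replicates 1 and 2. The other 708 members of those chains had a median log2 difference of -0.43, below the -0.24 of all members. Of these 708, 28 were called higher, beside 8.01% of all regions. In the 177 chains with a member called higher, the other 676 members had a median of -0.09. These medians come from chains picked by their called members in the same libraries and are a description.

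By the F-test, members of a chain often moved unevenly. That test pools the spread of a chain's members, which come from the same 4 libraries and are not independent. Its p-values can therefore be too small, and a shift of a whole library, which also enters that spread, can make them too large. After median centring the F-test adjusted p of the chain on chromosome 13 from 40949790 to 41020343 went from 0.74 to 0.0096. That of R11702 to R11706 went from 7.7e-20 to 1.9e-09. The F-test called 167 of the 828 dense chains (20.2%) at an adjusted p of at most 0.05, beside 11.5% of all 4833 chains of 2 or more regions and 9.66% of chains of 2 or 3. The share was 8.29% for chains of 2, 13.6% for chains of 3, 17.6% for chains of 4 and 23.2% for chains of 5. It was 23.4% for chains of 6 or 7 and 20.0% for chains of 8 to 16. After median centring it rose with each step in size, through 19.0%, 31.2%, 35.8%, 44.4%, 53.2% and 63.6%. Chains of different size are therefore not compared like for like, and how far size alone sets these shares was not tested. Chromosome 8 held the most, 25 of its 71 dense chains, and no test of chromosomes was made. With libraries centred on their medians 354 were called uneven, 166 of them among the 167, beside 25.7% of all chains of 2 or more. With the replicate block there were 273, all 167 among them. No share over all chains is given for the block or for the left-out libraries that follow. Leaving out Zscan4- replicate 1 or 2 gave 43 and 52, and leaving out Zscan4+ replicate 1 or 2 gave 199 and 218.

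**Figure D3:**
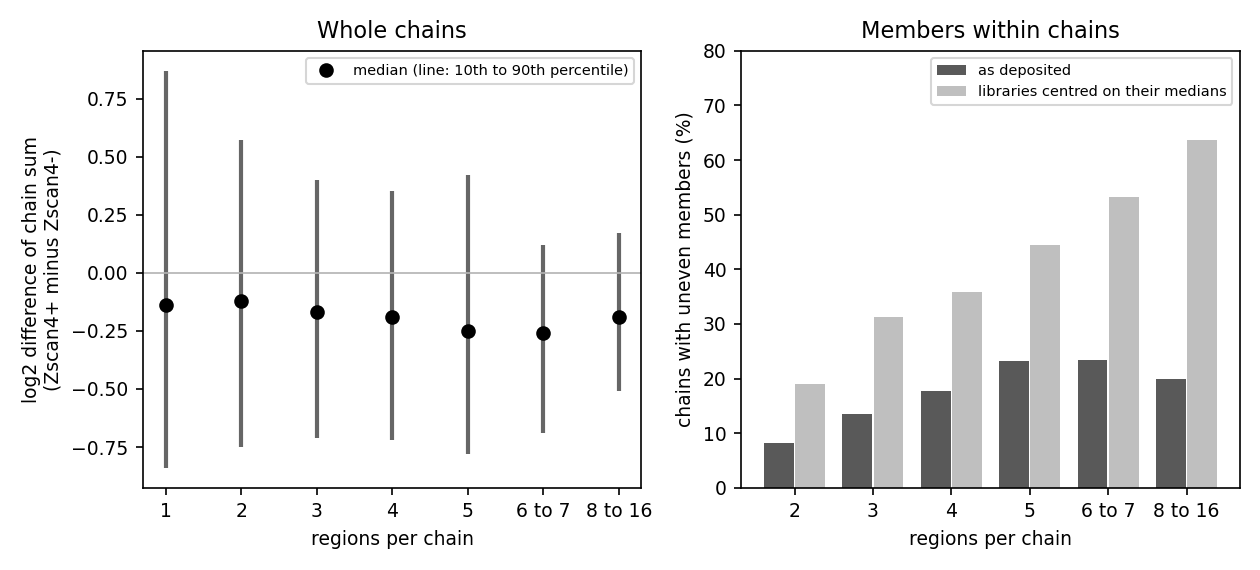
Left, median log2 difference of chain sums (Zscan4+ minus Zscan4-) with lines from the 10th to the 90th percentile, by number of regions per chain. Right, percentage of chains whose members differ by the diffSplice F-test at an adjusted p of at most 0.05, as deposited and after centring libraries on their medians. With size the spread of sums narrows from 1 to 4 regions. As deposited, the share of uneven chains goes from 8.29% for pairs to between 17.6% and 23.4% for dense chains. After centring it goes from 19.0% for pairs to 63.6% for chains of 8 to 16.

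In most uneven chains the odd member was one that went up. Of the 167, 133 held a member called higher, 48 a member called lower and 21 both, and 7 held none. In 133 the highest member lay further from the chain's median than the lowest did. The range from the lowest to the highest member was a median of 2.20 log2 units in the uneven chains and 0.85 in the others. Only 6 of the 167 had a sum that was called, and the median size of the change of their sums, regardless of sign, was 0.31.

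The chain R16711 to R16714, on chromosome 5 from 65091987 to 65115337, held both directions side by side. R16711 went from 10.99 and 10.3 RPKM in Zscan4- replicates 1 and 2 to 3.72 and 5.50 RPKM in Zscan4+ replicates 1 and 2 (log2 difference -1.15, limma adjusted p = 0.016). R16712, next to it, went from 2.82 and 3.49 to 0.66 and 2.01 RPKM (-1.09, adjusted p = 0.023). Both fell, and in each the Zscan4+ libraries lay below the Zscan4- libraries.

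R16713, 6.1 kb further on, went from 0.29 and 0.32 RPKM to 4.74 and 4.37 RPKM (log2 difference 2.65, limma adjusted p = 1.6e-10). That is 3 and 6 reads in Zscan4- against 91 and 73 reads in Zscan4+ replicates 1 and 2. The last member, R16714, went from 0.61 and 0.27 to 2.92 and 4.73 RPKM (2.19, adjusted p = 2.0e-07). The chain sum stood at 23.6 and 22.3 RPM in Zscan4- and 14.9 and 20.2 in Zscan4+ libraries. Its log2 difference of -0.39 was not called (limma adjusted p = 0.56). The F-test gave an adjusted p of 2.6e-18, or 8.6e-08 after median centring.

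A similar pattern was measured on chromosome 7 from 20356199 to 20368049. Its first member, R19154, fell from 9.23 and 9.10 to 2.38 and 5.26 RPKM (log2 difference -1.25), and the middle pair R19155 and R19156 rose by 2.59 and 2.57. These 2 are narrow regions of 260 and 214 bp with 4 and 5, and 3 and 8, reads in the Zscan4- libraries. The chain sum differed by -0.15 (limma adjusted p = 0.87). The F-test adjusted p was 3.3e-18, or 8.8e-08 after median centring.

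In the other 4 of the 6 most uneven chains, risen members stood among uncalled ones. The chain R15667 to R15675, on chromosome 4 from 129178157 to 129234649, had 9 members. R15671 went from 0.71 and 0.52 to 5.63 and 7.53 RPKM, and R15672, 10.7 kb on, from 0.51 and 0.36 to 4.21 and 4.28 RPKM. The other 7 had log2 differences of -0.79 to 0.36, and the sum differed by -0.01 (limma adjusted p = 0.99).

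The chain R16626 to R16630, on chromosome 5 from 39047320 to 39090040, had a single risen member in the middle. R16628 was at 0 and 3 reads in Zscan4- replicates 1 and 2 and at 32 and 46 reads in Zscan4+ replicates 1 and 2, which is 7.61 and 12.6 RPKM. Its neighbours on either side, 12.4 kb before and 11.3 kb after, had differences of 0.04 and -0.04. On chromosome 5 from 142917016 to 142940887, R17612 went from 1.47 and 1.85 to 18.4 and 36.9 RPKM (log2 difference 3.63), and R17611, 559 bp before it, was also called higher at 1.17. In that chain R17609 and R17610 had -0.13 and -0.53. The sixth was the chain on chromosome 19 described above.

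**Figure D4:**
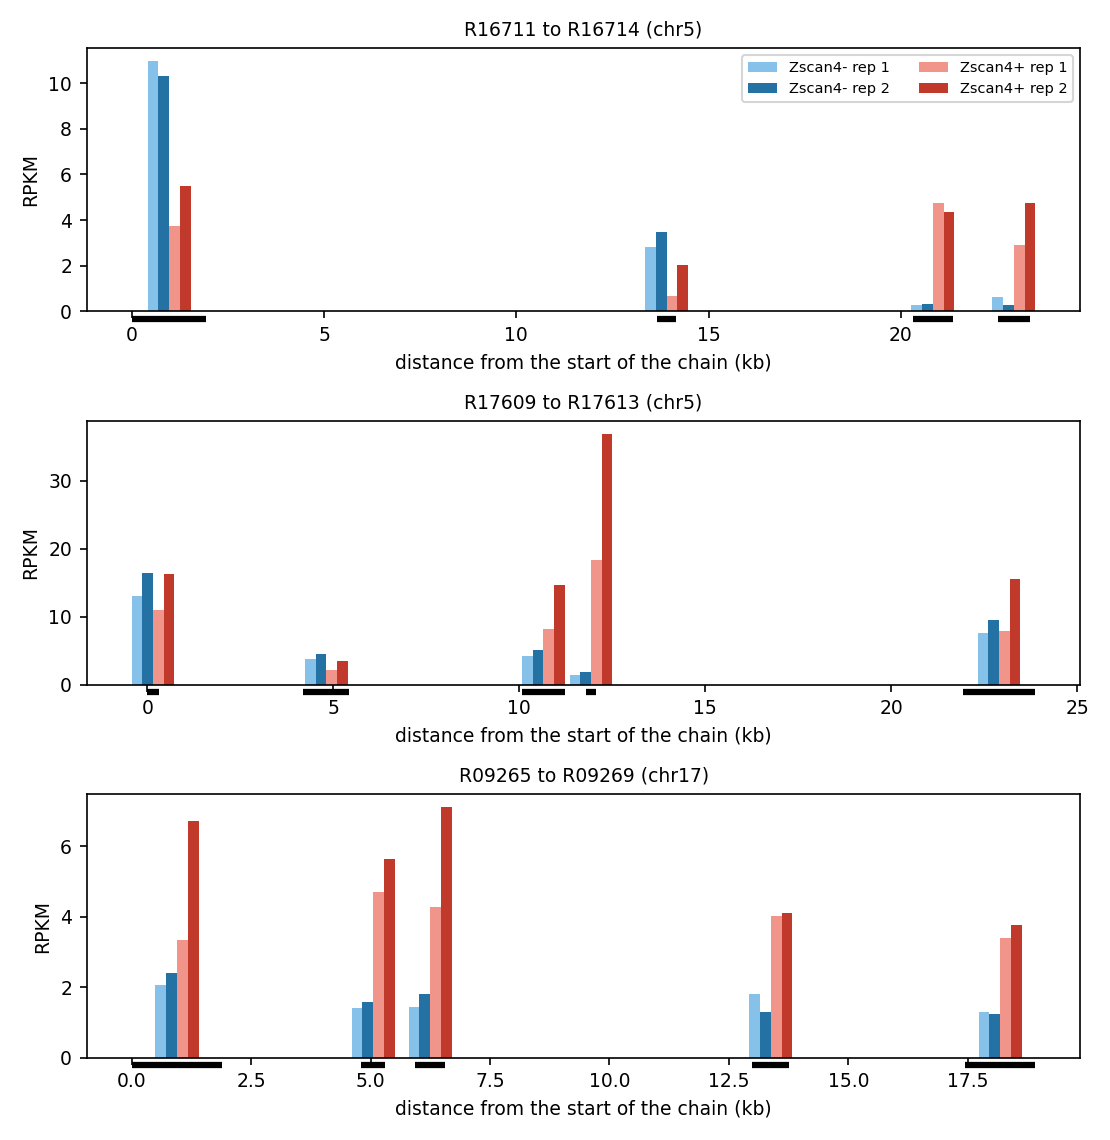
H3K27ac level (RPKM, y axis) of each member in the 4 libraries against distance from the start of the chain (kb, x axis). Shown are an uneven chain with both directions (top), an uneven chain with 2 members called higher (middle) and the most even rising chain (bottom). In the middle chain the log2 differences of these 2 are 1.17 (R17611) and 3.63 (R17612). Bars are centred on each region and black marks show its width. In the top chain the first 2 members are lower and the last 2 higher in Zscan4+ libraries.

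Signs within chains were mixed as a rule. All members had a difference below 0 in 230 chains and above 0 in 40, and both signs occurred in 558 (67.4%). After median centring the numbers were 176, 61 and 591. The median range between the lowest and the highest member was 0.98 log2 units, it was under 1 in 423 chains (51.1%) and at least 2 in 108 (13.0%).

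This spread was larger than that between replicates. Within a chain, the SD of the members' log2 differences was a median of 0.45 for Zscan4+ against Zscan4- in replicate 1 and 0.41 in replicate 2. Between the 2 Zscan4- libraries it was 0.26, and between the 2 Zscan4+ libraries 0.27. For the sums, the SD across chains was 0.43 and 0.40 between groups, against 0.15 and 0.19 between replicates.

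The pattern repeated between replicates. A member's deviation from its chain's mean difference correlated at r = 0.834 between replicate 1 and replicate 2, which share no library, over the 4155 members, and at 0.839 over the 3396 members with a mean of at least 50 reads. The difference of the chain sum correlated at 0.938 over 828 chains. These are correlations across regions or chains, which are not independent samples. Split by what repeated in both replicates, 70.9% of the variance of members' differences lay within chains (0.301) and 29.1% between chains (0.124).

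Levels of members also correlated between the groups. Between a Zscan4- and a Zscan4+ library the log2 levels of members correlated at r = 0.806 to 0.837, against 0.956 and 0.968 between replicates, and those of regions outside dense chains at 0.663 to 0.706, against 0.935 and 0.954. The strongest member was the same in all 4 libraries in 471 chains (56.9%), in 83.2% between the Zscan4- replicates and in 81.3% between the Zscan4+ replicates, and in 67.4% to 72.2% between a Zscan4- and a Zscan4+ library. In 108 chains both Zscan4- libraries had the same strongest member and both Zscan4+ libraries another. The like split by replicate number, with both replicate 1 libraries against both replicate 2 libraries, was found in 21. Of the 108, 16 had a new strongest member called higher, 27 an old one called lower, and 2 had both.

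The exchange with the widest gap, chosen after the values were seen, was in a chain of 6 on chromosome 10. R02474 (116603620 to 116605272) held 11.4 and 10.5 RPM in Zscan4- and 3.45 and 5.02 in Zscan4+ libraries. R02476 (116617707 to 116619108) held 0.50 and 0.45 in Zscan4- and 4.76 and 6.09 in Zscan4+ libraries. Their log2 differences per region were -1.23 and 2.37.

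By the share of the strongest member and the effective number of members, signal was spread a little more evenly in Zscan4+ cells. The strongest member held a median of 38.7% and 38.1% of the chain sum in Zscan4- replicates 1 and 2, and 37.0% and 37.3% in Zscan4+ replicates 1 and 2. The effective number of members, which is 1 over the sum of squared shares, had a median of 3.51 and 3.53 in Zscan4- and 3.64 and 3.61 in Zscan4+ libraries. The share of the widest member did not fall, at a median of 28.80% and 28.99% in Zscan4- and 29.65% and 29.03% in Zscan4+ libraries. The groups did not overlap in any of these measures, and the exact two-sided permutation test gave p = 0.33 for each, the smallest p possible here.

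Medians were close for members at different places in a chain. Members at the ends of chains had a median log2 difference of -0.22 and members inside of -0.25. The widest member of each chain had a median of -0.20 and the others of -0.25. The 732 members under 300 bp had a median level of 22.4 RPKM in Zscan4- replicate 1, above the 4.94 RPKM of members from 1 to 2 kb wide. They were called higher in 3.55% and lower in 5.05%, against 8.70% and 9.23% of the regions under 300 bp outside dense chains. Those other narrow regions were weaker, with a median of 13.2 RPKM and 32 reads in that library against 55 reads for the members. No test was made of these splits.

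Differences of close neighbours were more alike than those of distant ones. The difference of a member in replicate 1 correlated with that of the next member in replicate 2 at a mean r of 0.547 over 849 pairs with gaps under 2.5 kb. It was 0.291 from 2.5 to 5 kb (787 pairs), 0.294 from 5 to 7.5 kb (715 pairs) and 0.253 from 7.5 to 12.5 kb (976 pairs). Beyond the chaining limit it was 0.198 for 3683 pairs up to 25 kb apart, and 0.034 for 2992 pairs over 200 kb apart. No library enters both sides of these correlations, which are across region pairs and are given as a description. Among neighbouring members both called, 85 pairs went the same way and 11 opposite ways, and of the 36 such pairs within 2.5 kb all 36 went the same way. In chains of 2 or 3 regions 160 such pairs went the same way and 10 opposite ways, and their r was 0.385, against 0.341 for dense chains over all gaps.

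**Figure D5:**
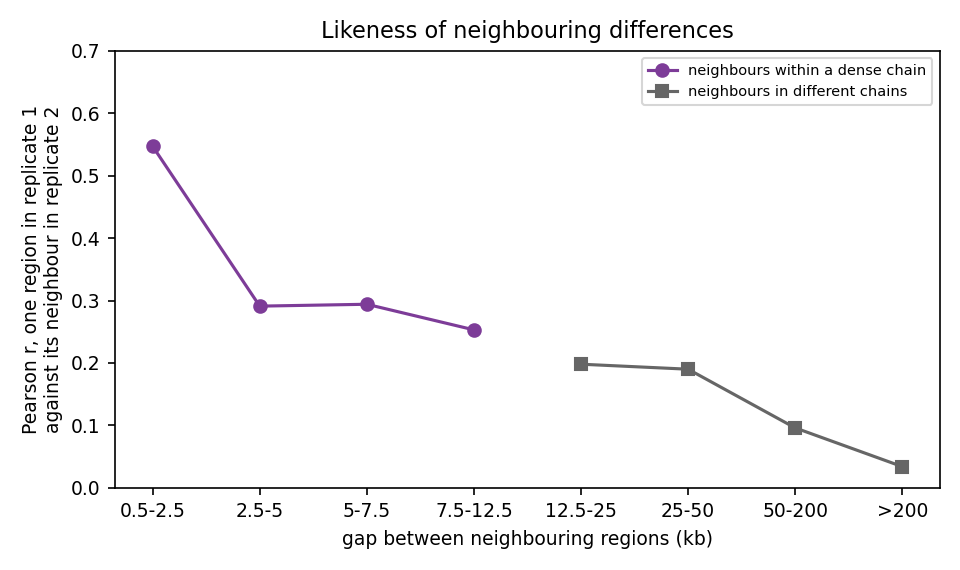
Pearson r between the log2 difference (Zscan4+ minus Zscan4-) of a region in one replicate and that of its next neighbour in the other replicate, averaged over both assignments (y axis), by the gap between them in kb (x axis). Within dense chains r drops from 0.547 at the shortest gaps to 0.253 near the chaining limit, and for neighbours in different chains it ends at 0.034.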

How the data were processed

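The authors deposited RPKM (read density scaled to region length and library size, 2 decimals) for 1 shared list of 23946 regions in 4 libraries, per the file headers. Bowtie and HOMER on mm9 were used, per the submitters' processing notes. Versions, and how regions were called: not given in the sources used here. Positions are as deposited. No input library was analysed here.

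RPKM times width fell on whole multiples of 1 step in each library; 97.13% to 99.97% of values under 50 reads lay within 0.1 of a whole read, which gave the depths. Groups were compared with limma 3.58.1 (R 4.3.3, variance trend) on log2(RPKM + 0.5) per region and log2(sum + 0.5) per chain, for means of at least 0.5, two-sided, with Benjamini-Hochberg adjustment over all regions or all 15567 chains. The pseudocount understates changes of low regions. Evenness was tested with limma's diffSplice. Other values used Python 3.11.15 and scipy 1.17.1. The code was tested on simulated data.

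Named chains are the 8 with most regions, the 8 with the highest sums, up to 8 with the largest rise and fall, the 6 most uneven and the 3 with most called members in each direction; not all are printed. The members and lists were chosen with earlier results of these data known. Gene lists could not be applied, as regions carry no gene names. Replicate numbers pair libraries, since by the labels both second replicates had a preparation of their own; the replicate differences of the 2 groups correlated at 0.63 over dense chain sums and at 0.35 over all regions.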

Additional observations from a re-analysis of the deposited data

How the results depend on the processing

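Sums called higher (7) numbered 106 with median centring, 163 with quantile normalization, 186 with centring and the replicate block, 11 at a threshold of 0.10, 11 with gaps up to 25000 bp, 1 with gaps up to 5000 bp, 32 and 0 for chains of at least 3 and 6, 16 over members of 300 bp or wider, and 0 to 145 with a library left out. Sums called lower (15) numbered 249, 193, 355, 37, 18, 2, 36, 2 and 22 in that order, 36 without a variance trend, 35 with voom on recovered reads, and 0 to 535 with a library left out. With the replicate block alone they were 6 and 13, with 1 rise and 5 falls lost and 3 falls gained. Uneven chains (167) numbered 354 with centring, 342 with quantile normalization, 273 with the block, 510 with both centring and block, 418 and 13 with gaps up to 25000 and 5000 bp, 308 and 44 for chains of at least 3 and 6, and 43 to 218 with a library left out. Members called higher (231) numbered 480, 471, 286, 705, 495, 29, 432 and 61 under those settings and 89 to 428 with a library left out; members called lower (264) numbered 725, 638, 434, 1173, 579, 36, 440 and 83, 422 at the threshold of 0.10, and 2 to 1551 with a library left out. Gap and size settings change how many chains there are. Apart from centring, no share over all chains or regions is given for these settings. The share difference (-1.15 points) was -1.82 and -0.13 with gaps up to 25000 and 5000 bp, -1.52 and -0.49 for chains of at least 3 and 6, and -1.25 to -1.04 with a library left out. Why the remaining settings moved these values: the cause was not tested. Of the 31 named chains, the sum of R21824 to R21833 on chromosome 8 reversed, from -0.02 to 0.36 (limma adjusted p = 0.022) without Zscan4+ replicate 1, and was -0.40 without Zscan4+ replicate 2. Of the 31 sums, centring added 8 calls, centring with the block 9, quantile normalization 4, leaving out Zscan4+ replicate 1 or 2 added 2 and 12; the block ended 3 of the 15 calls, a minimum mean of 2 ended 2, and leaving out either Zscan4- library ended all 15. All 6 named uneven chains kept an F-test adjusted p of at most 0.0054 under the settings run. The width restriction, and one to members with at least 20 reads (164 uneven chains), were added after seeing the data. Fits with a library left out take the spread of the single remaining library from the pair in the other group.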
